A study of Mus musculus with 4 samples.

Results

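Kcnj14, Ush1c, Hrc, Mybpc2 and Tmem86a are 5 genes within 2.55 Mb of mouse chromosome 7 whose levels in the left ventricle followed the transgene label. Kcnj14, Ush1c and Hrc were higher in both transgenic hearts than in either wild-type heart, and Mybpc2 and Tmem86a were lower. They were chosen by that pattern, on their measured levels in both mice of each genotype, in an earlier look at these same counts. Their genotype values are therefore given as a description with no test. They are 5 of the 38355 genes in the count table, and all 5 were among the 14189 genes that passed the filter on low counts. The stretch from the start of Mybpc2 to the end of Tmem86a held 80 tested genes.

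The study sequenced total RNA of the left ventricular free wall from 4 untreated mice in a test of harm to the heart from VSFP2.3. This is a fluorescent indicator protein that reports membrane voltage, aimed here at heart muscle cells. The wild-type group (WT) held a 35-week male (WT 1) and a 19-week female (WT 2), and the VSFP2.3 transgenic group (TG) a 35-week male (TG 1) and a 19-week female (TG 2), all of the same parents. The promoter of the transgene, its place in the genome and the strain are not given in the sources used here, and the transgene's own transcripts were not analysed here.

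These genes have unlike functions. Kcnj14 encodes Kir2.4, a potassium channel of the inward rectifier family, whose members pass potassium into cells more readily than out and hold the resting potential of heart muscle. Hrc encodes a histidine-rich, calcium-binding protein inside the sarcoplasmic reticulum, the store from which each heartbeat releases calcium. Mybpc2 encodes the fast skeletal form of myosin-binding protein C, a thick-filament protein whose cardiac form is encoded by Mybpc3. Ush1c encodes harmonin, a scaffold with PDZ domains known from the stereocilia of hair cells and the microvilli of the gut. Tmem86a encodes a membrane protein related to lysoplasmalogenase, an enzyme of ether lipid breakdown.

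All 5 are protein-coding, and their places are given in the mm10 assembly from the GENCODE vM21 annotation. Mybpc2 (ENSMUSG00000038670) spans 44501699 to 44524656 on the minus strand, and Hrc (ENSMUSG00000038239) 45335290 to 45338974 on the plus strand. Kcnj14 (ENSMUSG00000058743) spans 45816460 to 45824782 on the minus strand, and Ush1c (ENSMUSG00000030838) 46195350 to 46238503 on the same strand. Tmem86a (ENSMUSG00000010307) spans 47050601 to 47054777 on the plus strand. They are not next to each other. Between Mybpc2 and Hrc lie 811 kb with 37 tested genes, between Hrc and Kcnj14 477 kb with 19, between Kcnj14 and Ush1c 371 kb with 9, and between Ush1c and Tmem86a 812 kb with 10. The genes differ in build as well, with 28 separate exonic blocks each in Mybpc2 and Ush1c, 5 in Hrc and 4 each in Kcnj14 and Tmem86a.

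Promoter sequences were matched in RefSeq (GRCm38.p6) for 4 of the 5 genes, Kcnj14 being the exception. The 250 bases before the annotated start are shown for the gene with the largest TG to WT ratio, for the most abundant gene and for a gene with lower values in TG, so that both directions of difference are shown. Capitals mark matches to the GC box (GGGCGG, either strand) and the E-box (CANNTG, either strand), which do not overlap in these sequences.
Ush1c, chr7:46238491-46238740, minus strand: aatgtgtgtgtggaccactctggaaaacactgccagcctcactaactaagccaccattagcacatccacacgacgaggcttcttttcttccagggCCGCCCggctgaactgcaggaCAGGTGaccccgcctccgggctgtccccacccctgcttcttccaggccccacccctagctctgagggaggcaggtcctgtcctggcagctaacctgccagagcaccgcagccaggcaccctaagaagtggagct
Hrc, chr7:45335019-45335268, plus strand: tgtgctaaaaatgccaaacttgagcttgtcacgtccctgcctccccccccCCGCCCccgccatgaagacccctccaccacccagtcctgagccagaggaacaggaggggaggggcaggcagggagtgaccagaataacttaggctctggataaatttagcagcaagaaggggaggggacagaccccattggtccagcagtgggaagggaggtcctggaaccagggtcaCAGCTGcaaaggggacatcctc
Mybpc2, chr7:44524670-44524919, minus strand: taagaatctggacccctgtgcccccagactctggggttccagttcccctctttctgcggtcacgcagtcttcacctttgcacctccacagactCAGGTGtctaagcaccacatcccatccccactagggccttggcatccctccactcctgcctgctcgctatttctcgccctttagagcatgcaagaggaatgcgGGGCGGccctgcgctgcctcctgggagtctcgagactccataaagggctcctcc
Each of the 3 held 1 GC box and 1 E-box, and the promoter of Tmem86a held 1 GC box and no E-box. GC boxes were found in 32.7% of 32851 RefSeq promoter windows of this length and E-boxes in 66.2%. The letters TATAAA (12.4% of windows), the GATA site AGATAA (9.99%), the MEF2 box (2.92%) and the CArG box (1.47%) had no match in any of the 4 windows. Ush1c and Hrc, higher in TG, and Mybpc2, lower in TG, carried the same pair of matches. The GC content was 61.2% for Ush1c, 59.6% for both Hrc and Mybpc2 and 66.8% for Tmem86a, against a median of 52.4% over all windows.

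Gene totals per library were 14158440 to 16762713 counts. WT 2 stood apart, with 89.9% of its counts in protein-coding genes against 96.7 to 97.4% in the other 3. The atrial light chain gene Myl7 stood at 71.1 CPM (counts scaled to an equal library total) in WT 2 against 0 to 0.304 CPM in the others. The atrial markers Myl4 (75.6 CPM) and Sln (19.1 CPM) also peaked in WT 2, and elsewhere they reached at most 1.16 and 0.0664 CPM. Nppa went the other way, with its minimum of 1057 CPM in WT 2 and a range of 1556 to 4228 CPM elsewhere. Nppa made up most of the summed atrial list, which was likewise lowest in WT 2 (1222 CPM, elsewhere 1557 to 4229). Leukocyte genes split the libraries in another way than genotype, with the summed level of 5 markers at 2004 CPM in WT 1 and 1747 in TG 2 against 274 in WT 2 and 242 in TG 1. Markers of heart muscle summed to 51537 to 67097 CPM, so heart muscle transcripts were high in every library. That sum does not tell ventricle from atrium, and the share of atrial tissue in WT 2 was not tested. In bulk tissue, fewer cells of a type and less RNA per cell cannot be told apart.

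Kcnj14 had 36 counts in WT 1 and 30 in WT 2, against 77 in each TG library. Scaled to CPM, this was 2.19 in WT 1 (95% exact binomial interval 1.53 to 3.03) and 1.92 in WT 2 (1.29 to 2.74), against 5.48 in TG 1 (4.32 to 6.85) and 5.11 in TG 2 (4.04 to 6.39). The genotypes did not overlap, a pattern for which the gene was chosen. These intervals did not overlap between genotypes either, but they cover counting error only. Mean levels were 2.05 ± 0.191 (WT) and 5.30 ± 0.257 CPM (TG; SD, n = 2), and the fitted log2 fold change of TG over WT was 1.36 ± 0.28 (standard error, SE). Both TG mice were at 2.34 times the higher WT mouse or more. The level of Kcnj14 is uncertain in part, because the processed pseudogene Gm5522 on chromosome 1 (10805281 to 10806522), which has no row in the count table, is 99.1% identical to it over 1242 bp. Reads from that part of the transcript can match both places, and the authors' way of counting such reads is not stated in the sources used here.

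Ush1c had the widest gap. It had 17 counts in WT 1, 57 in WT 2, 175 in TG 1 and 216 in TG 2, or 1.03 CPM (0.602 to 1.65), 3.65 (2.76 to 4.72), 12.4 (10.7 to 14.4) and 14.3 (12.5 to 16.4). WT 1 was the lowest library and the 2 WT intervals did not overlap each other, so the WT mice differed beyond counting error. Mean levels were 2.34 ± 1.85 (WT) and 13.4 ± 1.34 CPM (TG; SD, n = 2), a fold of 5.72 between means and a log2 fold change of 2.52 ± 0.58 (SE). The lower TG mouse stood at 3.41 times the higher WT mouse. The log2 fold change depended on which WT library was used, at 1.88 without WT 1 and 3.69 without WT 2. Of its exonic length, 3.12% is shared with an opposite-strand gene, Gm9860, that has no row in the count table.

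Hrc was the most abundant of the 5, at 723 CPM in WT 1 and 562 in WT 2 against 1023 in TG 1 and 865 in TG 2. WT 2 was the lowest library and TG 1 the highest, and within each genotype the 35-week male was above the 19-week female. Mean levels were 642 ± 114 (WT) and 944 ± 112 CPM (TG; SD, n = 2), with a log2 fold change of 0.56 ± 0.19 (SE). The lower TG mouse was 1.20 times the higher WT mouse, the narrowest gap among these genes. Without WT 2 the log2 fold change was 0.39, and without WT 1 it was 0.75. The summed heart muscle markers stood at 51537 and 59658 CPM in WT 1 and WT 2 and at 67097 and 53547 in TG 1 and TG 2, and their part in the values of Hrc was not tested.

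Mybpc2 was lower in TG, at 57.2 CPM in WT 1 and 45.9 in WT 2 against 30.1 in TG 1 and 34.3 in TG 2. The WT and TG mice did not overlap, the lower WT mouse being 1.34 times the higher TG mouse. Mean levels were 51.5 ± 7.94 (WT) and 32.2 ± 2.95 CPM (TG; SD, n = 2), with a log2 fold change of -0.68 ± 0.17 (SE). The opposite-strand gene Gm44646, which has no row in the count table, shares 5.32% of its exonic length. Because Mybpc2 is the fast skeletal form, 12 markers of skeletal muscle were set beside it. Their summed level was 66.4 and 68.1 CPM in the WT mice against 35.1 and 41.2 in the TG mice, also lower in both TG mice, and nearly all of it was Neb, which encodes nebulin (60.0 and 58.5 CPM in the WT mice against 31.1 and 34.5 in the TG mice). Without Neb the sum was at 6.45 and 9.53 CPM in the WT mice against 4.05 and 6.77 in the TG mice, and the genotypes overlapped. The 3 skeletal markers that could be tested all had log2 fold changes below 0. Among them Casq1, the skeletal calsequestrin and the larger share of the sum without Neb, was lower in both TG mice (4.26 and 6.72 CPM in WT 1 and WT 2, 2.56 and 4.05 in TG 1 and TG 2, log2 fold change -0.73 ± 0.39), and Tnni2 was at -0.69 ± 0.76 with overlap. The 9 skeletal markers too low to be tested, the fast myosins Myh1, Myh2 and Myh4 and the actinin Actn3 among them, lay between 0 and 0.576 CPM in every library. The part of other skeletal muscle transcripts in the values of Mybpc2 was not tested.

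Tmem86a was the steadiest of the 5 within genotypes. It stood at 19.5 CPM in WT 1 and 19.4 in WT 2, against 13.4 in TG 1 and 12.9 in TG 2. The exact binomial intervals of WT 1 (17.4 to 21.8) and WT 2 (17.3 to 21.7) lay above those of TG 1 (11.5 to 15.4) and TG 2 (11.2 to 14.9). These intervals cover counting error only, not differences between mice, and the gene was chosen for its genotype gap. Mean levels were 19.5 ± 0.0955 (WT) and 13.2 ± 0.299 CPM (TG; SD, n = 2). Its log2 fold change was -0.56 ± 0.15 (SE), at -0.58 to -0.54 with any 1 library left out.

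**Figure D1:**
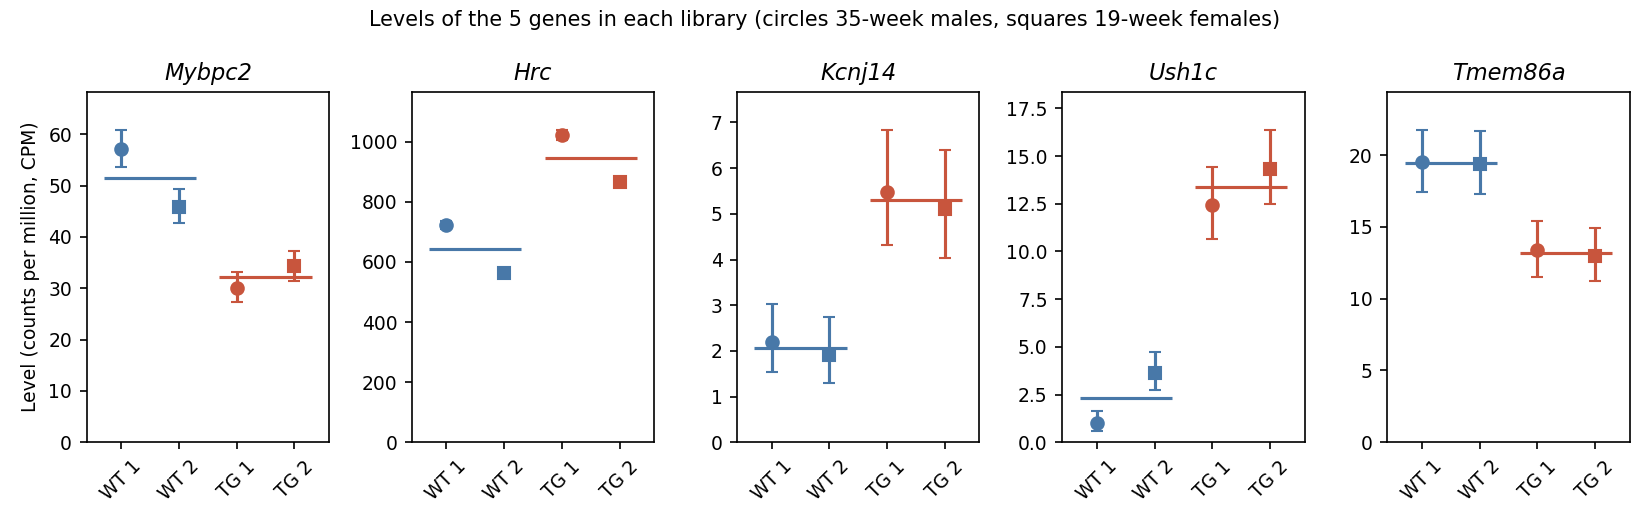
Levels of the 5 genes in CPM on linear axes from 0, 1 point per library (WT blue, TG red, circles 35-week males, squares 19-week females), with 95% exact binomial intervals of counting error and a line at the mean of each genotype. Kcnj14, Ush1c and Hrc are higher in both TG libraries and Mybpc2 and Tmem86a are lower, and the WT libraries of Ush1c lie apart at 1.03 and 3.65 CPM.

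Per kilobase of exon, the genes were ordered Hrc (mean 309 CPM per kb over the 4 libraries), Mybpc2 (11.6), Tmem86a (8.64), Ush1c (2.04) and Kcnj14 (1.35). Hrc ranked 109 among 14070 tested genes with a known exonic length and Kcnj14 ranked 10620. Mybpc2 was above Tmem86a in all 4 libraries. In WT the last 2 did not differ beyond their spread, with Ush1c at 0.269 and 0.947 CPM per kb and Kcnj14 at 0.806 and 0.706. In TG they were apart, with Ush1c at 3.23 and 3.73 CPM per kb and Kcnj14 at 2.02 and 1.88.

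All 5 genes kept 1 direction in the male and in the female pair, a property for which they were chosen. The log2 TG to WT ratio of Ush1c was 3.43 in the 35-week males and 1.94 in the 19-week females. Kcnj14 was at 1.27 and 1.36 in the same order and Hrc at 0.50 and 0.62. Among the genes lower in TG, Mybpc2 was at -0.92 and -0.42 and Tmem86a at -0.54 and -0.58. Whether the ratios differed between the pairs was not tested, with 1 mouse of each genotype per pair. Both TG libraries were above both WT for 3 of the 5 and below for 2, against 10.3% and 10.7% of all tested genes, counts that the choice of these genes fixed.

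**Figure D2:**
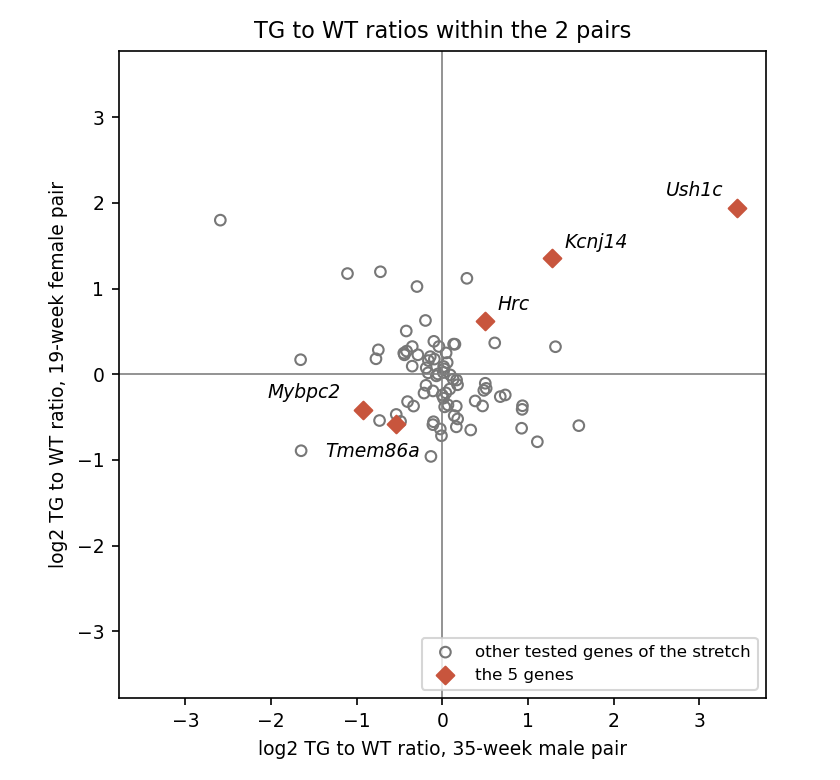
The log2 ratio of TG to WT in the 35-week male pair (horizontal axis) and in the 19-week female pair (vertical axis) for the 80 tested genes of the stretch, with the 5 genes as red diamonds. The 5 lie in the upper right or lower left part, from Ush1c at 3.43 and 1.94 to Mybpc2 at -0.92 and -0.42, and many other genes lie in the parts where the pairs disagree.

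Between the genotypes, no gene passed the quasi-likelihood test of edgeR after Benjamini-Hochberg adjustment (0 of 14189, or 0%). An unadjusted p below 0.05 was reached by 99 genes, fewer than the share of 0.05 expected with no difference at all. Limma-voom also called 0 genes, with 95 below that level, and DESeq2 called 3. Such p-values rest on 2 animals per genotype, and the lack of calls does not show that the genotypes were alike.

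The contrast of the 35-week males with the 19-week females was not used to choose the genes. Its fit had no genotype term, so the genotype gap for which the 5 were chosen counted as spread within each side, and their not passing the test is in part a result of that choice. Log2 fold changes of males over females were 0.12 ± 0.35 for Mybpc2, 0.29 ± 0.28 for Hrc, 0.12 ± 0.66 for Kcnj14, -0.43 ± 1.20 for Ush1c and 0.03 ± 0.29 for Tmem86a (± SE, 2 libraries per side). The adjusted p was 0.999 for all 5 (edgeR quasi-likelihood, Benjamini-Hochberg over every tested gene). The test called 4 genes, or 0.0282% of those tested, all on the Y chromosome. With genotype as a term the values were 0.07 ± 0.21 for Mybpc2, 0.30 ± 0.17 for Hrc, 0.14 ± 0.34 for Kcnj14, -0.92 ± 0.49 for Ush1c and 0.03 ± 0.18 for Tmem86a. The SE was smaller for all 5, and the Ush1c value was further from 0. The adjusted p was 0.9999 for each (edgeR quasi-likelihood, Benjamini-Hochberg). That fit called 0 genes, so it missed the 4 Y chromosome genes as well. Its lack of calls therefore says nothing about the 5. Sex and age cannot be told apart, since both males were 35 weeks old and both females 19 weeks.

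Of the 75 other tested genes of the stretch, 6 (8.0%) were higher in both TG than in both WT mice and 11 (14.7%) were lower, against 10.3% and 10.7% over all tested genes. Together these were 17 of 75 (22.7%), close to the 21% of all tested genes and to the 23.3% of 967 tested genes elsewhere on chromosome 7. Their median log2 fold change was -0.04, against -0.01 over all tested genes. These shares depended on which library was left out. Without WT 2, 41.3% of the 75 were higher in TG against 32.9% of all tested genes, and without WT 1, 42.7% were lower against 32.6%. Without TG 2, 21.3% were higher against 30.1%, and 37.3% were lower against 31.4%. Without TG 1, 22.7% were higher against 24.6%, and 21.3% were lower against 26.2%. In the equal length before the stretch, 8 of 22 tested genes did not overlap, 6 of them lower in TG, and the equal length after it held only 4 tested genes, none of which separated the genotypes.

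The genes directly beside the 5 had small differences for the most part. Ush1c lies 15.3 kb from Abcc8, the sulfonylurea receptor of ATP-sensitive potassium channels, which was at 48.4 and 68.0 CPM in the WT mice against 63.1 and 54.8 in the TG mice (log2 fold change 0.02 ± 0.21). On its other side, 158 kb away, the voltage-gated channel gene Kcnc1 was at 0.12 ± 0.61. Kcnj14 lies 0.441 kb from Grwd1 (0.12 ± 0.23) and 1.88 kb from Cyth2 (0.10 ± 0.17), and both had overlapping genotypes. Hrc lies 1.51 kb from the cation channel gene Trpm4 (0.25 ± 0.34) and 37.5 kb from Snrnp70 (-0.44 ± 0.36), again with overlap. Mybpc2 lies 0.213 kb from Fam71e1 (0.15 ± 0.64) and 8.09 kb from the DNA polymerase subunit gene Pold1, whose genotypes did not overlap (9.67 and 11.1 CPM in the WT mice against 7.26 and 8.90 in the TG mice). Tmem86a lies 42.2 kb from Spty2d1, a histone chaperone gene that was higher in both TG mice (22.7 and 18.8 CPM in the WT mice against 24.9 and 24.0 in the TG mice), and 1734 kb from the next tested protein-coding gene, Zdhhc13 (0.03 ± 0.17). Of these 10 neighbours, 8 had overlapping genotypes, near the share over all tested genes, of which 21.0% did not overlap.

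**Figure D3:**
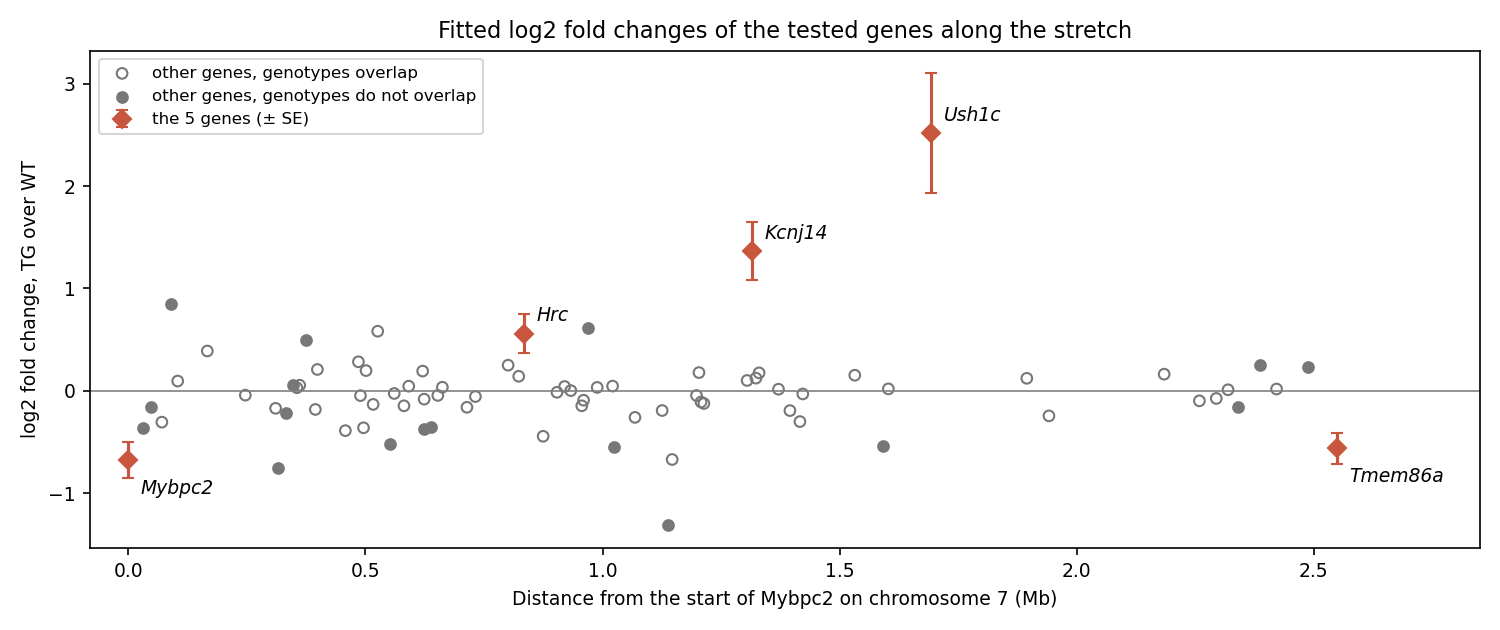
Fitted log2 fold change of TG over WT for the 80 tested genes by distance from the start of Mybpc2. Red diamonds with SE bars are the 5 genes, filled grey points other genes whose genotypes do not overlap and open points genes whose genotypes overlap. Most other points lie near 0 between the 5, and the lowest point is Mamstr at -1.31.

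Among the other genes of the stretch with separate genotypes, Mamstr, which encodes a coactivator of MEF2 factors in muscle, had the largest difference. It was at 3.40 and 3.07 CPM in the WT mice against 0.996 and 1.59 in the TG mice, a log2 fold change of -1.31 ± 0.40. This was further from 0 than those of Hrc, Mybpc2 and Tmem86a, so the 5 were not the 5 largest. The 11 lower genes also held Il4i1 (-0.75 ± 0.47), Plekha4 (-0.55 ± 0.36), Prrg2 (-0.52 ± 0.28) and Flt3l (-0.38 ± 0.31). Kcnj11, the pore subunit of the ATP-sensitive channel and the partner of Abcc8, was lower too, at 46.3 and 59.6 CPM in the WT mice against 42.2 and 30.6 in the TG mice (-0.54 ± 0.23). On the higher side, Dhdh was at 0.61 ± 0.36 and the mediator subunit gene Med25 at 0.50 ± 0.18. The endosomal sorting gene Tsg101 (0.25 ± 0.14), Akt1s1 (0.05 ± 0.13) and Spty2d1 were also among the 6 higher genes. None of these genes passed the edgeR test over all genes.

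Genes related in function to the 5 lay close to 0 for the most part. Leaving out the 5, medians ran from -0.07 to 0.16 over 5 lists, against -0.01 over all tested genes. The lists held 1 to 13 other tested genes. The -0.07 was the value of Mybpc3 alone, and the 0.16 rested on 4 genes related to harmonin. Of the inward rectifier channels and their receptor subunits, 12 of 17 were tested. Leaving out Kcnj14, 8 of 11 had log2 fold changes above 0 and 3 below, with a median of 0.11, and 2 were above and 2 below without overlap. Over all tested genes, 47.5% had log2 fold changes above 0, and 10.3% were above and 10.7% below without overlap. Kcnj2, the main inward rectifier of the ventricle, was at 160 and 153 CPM in the WT mice against 166 and 171 in the TG mice (0.11 ± 0.14), and Abcc9, the highest of the list per kilobase, was at 0.34 ± 0.23. Kcnj14 at 1.35 CPM per kb was low beside Kcnj2 at 29.9 and Abcc9 at 93.6. The largest differences beside Kcnj14 were those of Kcnj11 and of Kcnj15 (0.41 ± 0.63), the latter at 0.640 to 1.99 CPM.

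Of the partners of harmonin and related linkage proteins, 5 of 15 were tested. Whrn, which encodes the related scaffold whirlin, was higher in both TG mice, at 8.45 and 9.21 CPM in the WT mice against 17.7 and 10.4 in the TG mice (log2 fold change 0.67 ± 0.30). Myo7a, the motor protein that binds harmonin in hair cells, was also higher in both TG mice (0.22 ± 0.23). Cib2 was lower in both TG mice (-0.41 ± 0.42), and Cdh23 overlapped (0.09 ± 0.38). Leaving out Ush1c, 2 of the 4 tested genes were above and 1 below without overlap, against 10.3% and 10.7% over all tested genes. The gut microvillus partners Anks4b and Cdhr2 had 0 counts in all 4 libraries, which allows up to 0.182 to 0.213 CPM depending on the library. Of 8 markers of epithelium and mesothelium, 7 were too low to be tested, and Cldn3 was at 0 throughout. Their summed level was 6.20 and 4.16 CPM in the WT mice against 0.996 and 4.71 in the TG mice, most of it Krt18, and their part in the values of Ush1c was not tested.

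Cardiac Mybpc3 was at 5834 and 6303 CPM in the WT mice against 6545 and 5020 in the TG mice (log2 fold change -0.07 ± 0.18), with overlap, and at 1423 CPM per kb it stood far above Mybpc2 at 11.6. Mybphl, the atrial relative, was at 6.91 CPM in WT 2 and 0.199 to 0.243 in the others and was not tested. Of the sarcoplasmic reticulum genes beside Hrc, 13 were tested, 6 with log2 fold changes above 0 and 7 below, with a median of -0.01. Pln, which encodes the pump inhibitor phospholamban and was the highest per kilobase, was at 0.04 ± 0.15. The calcium buffer gene Casq2 was at -0.08 ± 0.13 and Trdn, whose product triadin binds the protein encoded by Hrc, at 0.10 ± 0.17. Casq1, given above with the skeletal markers, had the value furthest from 0. Of 11 tested ether lipid genes beside Tmem86a, 3 were above 0 and 8 below, with a median of -0.02. Their values lay between -0.10 (Tmem189 at -0.10 ± 0.18) and 0.07 (Cept1 at 0.07 ± 0.21), and the highest of them per kilobase, Chpt1, was at -0.02 ± 0.26. Pex7, the import receptor of an ether lipid enzyme, was lower in both TG mice but by little (-0.08 ± 0.13). The related gene Tmem86b was at 0.851 to 1.09 CPM and overlapped (-0.01 ± 0.44). No gene of these 5 lists passed the edgeR test.

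**Figure D4:**
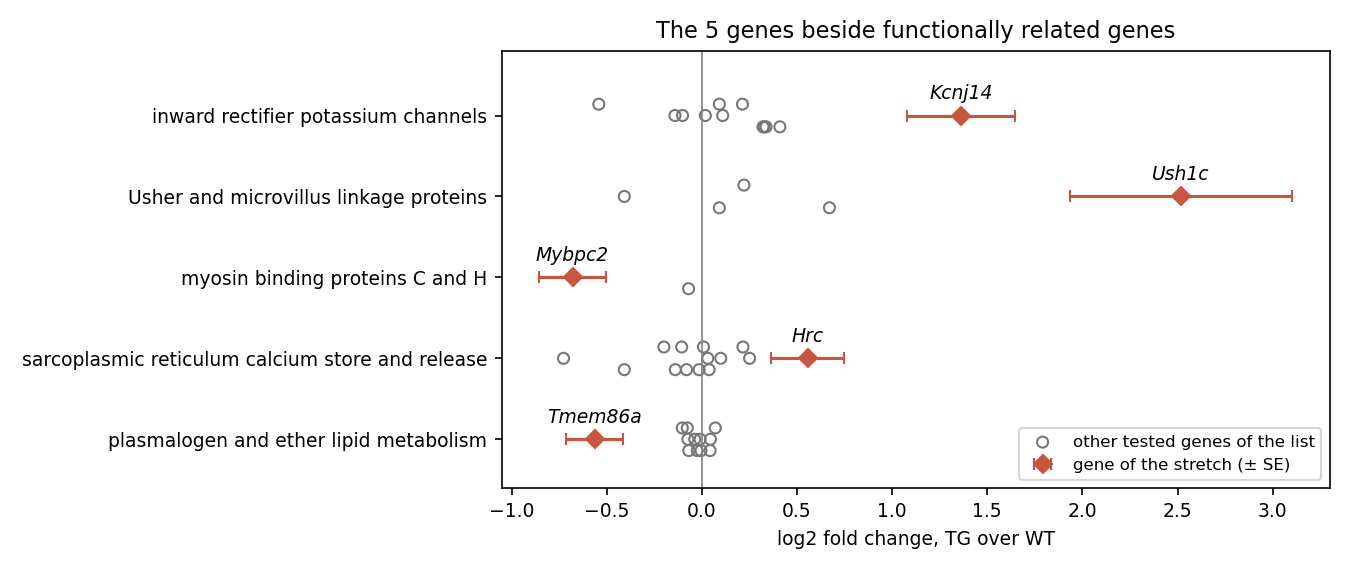
Fitted log2 fold change of TG over WT for the tested genes of 5 functional lists, 1 row per list. Red diamonds with SE bars are the 5 genes and open circles the other genes. Kcnj14, Ush1c and Hrc lie to the right of every other gene of their lists, and Tmem86a to the left of its list, while Casq1 at -0.73 is the lowest point of the row of Hrc.

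The genes nearest to each of the 5 in pattern were found by the Euclidean distance between mean-centred log2 CPM over the 4 libraries, as a description. For Hrc the nearest were Pla2g7 (distance 0.03), Slc16a4 (0.05) and Ccdc141 (0.07), and for Tmem86a Dna2 (0.05), Uxt (0.05) and Aarsd1 (0.07). Near Mybpc2 were Tk1 (0.11) and the small nucleolar RNA Snora73b (0.12). Kcnj14 had Hapln3 (0.36), Rims2 (0.36) and Snai2 (0.41) nearest. For Ush1c no gene came within 1 log2 unit, and the nearest were Psmc3ip (1.51), Mdk (1.61) and 1700029J07Rik (1.68). Some of these genes had few counts per library, among them Slc16a4 (7 to 13), Aarsd1 (10 to 18), Hapln3 (4 to 12) and Tk1 (11 to 28). Counting error alone can move their distances. Others had more, such as Pla2g7 (213 to 342) and Ccdc141 (2116 to 3418). Among the genes named here for their likeness, only Hapln3 lies on chromosome 7, and it lies outside the stretch.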

How the data were processed

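Total RNA of 4 libraries, 1 per mouse, was sequenced. The authors deposited raw counts per Ensembl gene, which were used for all tests, and the same genes as a normalized signal, which equalled the deposited counts divided by 1 factor per library (0.917 to 1.08). Per the submitters' processing notes, the tools included STAR 2.3.0 and HTSeq 0.6.1, with build mm10. The annotation release, the strand setting and the handling of reads with several matches are not given in the sources used here. Per the labels' protocols the kit was stranded.

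All fits used the raw counts and edgeR 4.0.16 under R 4.3.3 (filterByExpr, minimum count 10, TMM factors of 0.934 to 1.06, quasi-likelihood test, threshold 0.05 after Benjamini-Hochberg adjustment over 14189 genes). DESeq2 1.42.0, limma-voom (limma 3.58.1), other scalings and filters, a replicate block and leaving out each library were alternatives. CPM use TMM-scaled library sizes. Ratios within a pair use log2 CPM with a prior count of 2. Positions came from GENCODE vM21, which held 99.2% of the tested genes. Copies of the 5 genes were sought by blastn at 90% identity over at least 200 bp. Intervals are 95% Clopper-Pearson and cover counting error only. The edgeR fit was also run on simulated counts with the same spread for every gene and only planted differences between libraries of unlike size. The measured libraries differ in other ways, so the simulation does not show how the fit behaves on them, and its outcome is not reported here. The libraries carry the same replicate numbers in both genotypes, and each number marks 1 sex and age. The members and lists were chosen with earlier results of these data known. The genes named are the 5, their nearest tested protein-coding neighbours, up to 6 genes of the stretch per direction with separate genotypes and the largest log2 fold changes, the highest and the 2 most different genes of each functional list and the 3 genes nearest in pattern, of which some are not reported here. Kcnj2, Abcc8, Myo7a, Cdh23, Mybphl, Casq2, Trdn, Cept1, Tmem86b, Anks4b and Cdhr2 were named from the lists after their values were seen, for their relation to the 5. Neb, Actn3, Cldn3, Krt18, Tnni2, Myh1, Myh2, Myh4, Myl7, Myl4, Sln and Nppa come from the marker lists.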

Additional observations from a re-analysis of the deposited data

Results flagged for a closer look

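Fkbp1b, which encodes a regulator of the calcium release channel and stands in the list set beside Hrc, had a log2 TG to WT ratio of -1.42 in the 35-week male pair and 0.63 in the 19-week female pair. It was picked out because both ratios exceeded 1.5-fold in opposite directions. The difference between the pairs was not tested, and the gene was counted at only 0.213 to 0.790 CPM. It was the only one of 52 named genes to meet that criterion.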

How the results depend on the processing

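All 5 genes had the same direction between TG and WT under each of 12 alternatives, which their choice by separate genotypes largely fixed and which is no sign of stability. With 4 libraries the log2 fold changes lay between 2.52 and 2.78 for Ush1c, 1.35 and 1.41 for Kcnj14, 0.56 and 0.61 for Hrc, -0.68 and -0.65 for Mybpc2 and -0.56 and -0.49 for Tmem86a, the last value with the trend on exonic length removed. Leaving out 1 library, which assumes that the lone library of a genotype varies like the other 2, gave 1.88 (without WT 1) to 3.69 (without WT 2) for Ush1c, 1.27 to 1.46 for Kcnj14, 0.39 to 0.75 for Hrc and -0.83 to -0.51 for Mybpc2. The number of genes called between TG and WT was 0 with edgeR, 3 with DESeq2 and 0 to 6 with 1 library left out (6 without WT 1). A replicate block for the male and the female pair gave 0 calls, with log2 fold changes of 2.72 for Ush1c and -0.67 for Mybpc2. Same-numbered libraries deviated from their genotype means in opposite directions (r = -0.45 across 14189 genes), and a block with the numbers crossed, chosen after seeing the data, called 0 genes as well. Between males and females edgeR called 4 genes, DESeq2 33, edgeR without a filter 7 and with genotype as a term 0, and 0 to 7 with 1 library left out. The log2 fold changes of males over females ran from -0.41 to 0.51 for Mybpc2, 0.01 to 0.64 for Hrc, -0.68 to 0.99 for Kcnj14, -3.11 to 0.88 for Ush1c and -0.27 to 0.34 for Tmem86a with 1 library left out, and only Hrc stayed on 1 side of 0. Of the 75 other genes of the stretch, 16 to 31 (21.3 to 41.3%) were higher and 16 to 32 (21.3 to 42.7%) lower when any 1 of the 4 libraries was left out, an alternative added after seeing the data that requires fewer comparisons. Over all tested genes the shares were 24.6 to 32.9% and 26.2 to 33.6%. Without WT 2, 41.3% of the stretch was higher against 32.9% of all tested genes, and without WT 1, 42.7% was lower against 32.6%. Without TG 2, 21.3% was higher against 30.1%, and 37.3% was lower against 31.4%. Depth limits Kcnj14 and Ush1c most, with 17 to 57 counts in WT.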
